A study of Pyrus ussuriensis with 15 samples.

Results

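Divergent neighbouring gene pairs were examined in RNA-seq of *Pyrus ussuriensis* Maxim, an Asian pear, during adventitious root development. A pair was 2 adjacent gene models on 1 scaffold, the first on the minus strand and the second on the plus strand, whose facing ends lay less than 1 kb apart. Only models whose IDs begin with Pbr were used. This rule rests on position and strand alone, and no expression value entered it. It found 606 pairs among 41163 adjacent Pbr pairs, which is 1.47% of them, and these pairs hold 1212 of the 42812 Pbr models. Convergent pairs, in which the plus strand model comes first and the ends of the genes face each other, served as the comparison, and 2574 of them lay less than 1 kb apart.

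Genes in a divergent arrangement are transcribed away from each other, so that their promoters lie in the short stretch between their starts. Such a stretch can act as a bidirectional promoter, in which both genes draw on the same open chromatin and the same bound factors. In plants some divergent neighbours are known to be expressed together and others to be expressed independently of each other. In convergent pairs the stretch between the models holds the ends of both genes, and no promoter of either is placed there by the arrangement.

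The material came from adventitious buds kept in subculture for 25 days and then set to root on agar medium that held the auxin indole-3-butyric acid (IBA) at 0.5 mg/L and sucrose at 30 g/L. Libraries were made on 5 days, with day 0 as the baseline and day 3, 6, 9 or 12 as the later ones, 3 libraries each and 15 in all. All groups share the species and the medium, and adventitious roots is the tissue label on every day, day 0 included. Nothing in the labels states that replicates are separate cultures. The tests therefore weigh differences against the spread among libraries, and this spread may be technical.

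Depth ran from 11953240 to 17878524 counts per library, and the 1212 models of divergent pairs held 1.91% to 2.21% of them. Replicates of 1 day correlated at 0.963 or more in log2 CPM (TMM-scaled counts relative to the library total) on 4 of the 5 days, and at 0.939 to 0.948 on day 6. The table pairs no ID with a gene name or description. Pairs are therefore given by scaffold, start and end, IDs are printed for only 1 pair that rose and 1 pair that fell, and no role is given to any model. The coordinates follow the deposited table, whose reads were placed on the *Pyrus bretschneideri* genome, and the version of that genome is not given in the sources used here.

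The pairs were spread over 341 of the 1658 scaffolds that carry gene models of any kind. The distance between the 2 models had a median of 666 bases and ran from 6 to 999 bases. Only 43 pairs lay less than 250 bases apart, 144 lay 250 to 499 bases apart and 419 lay 500 to 999 bases apart. All Pbr lengths are multiples of 3, so the distances run from coding sequence to coding sequence and include the untranslated leaders. Divergent pairs under 1 kb made up 6.27% of the 9658 divergent pairs of any distance, whereas convergent pairs under 1 kb made up 26.2% of the 9836 convergent pairs. Short distances were thus more frequent in the convergent than in the divergent orientation.

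The 2 models of a divergent pair did not resemble each other in length. Pearson's r of their log2 coding lengths was 0.037 across the 292 pairs whose 2 models both passed a filter on low counts, described below. None of the 606 pairs had 2 models of equal length, and no model outside the Pbr set lay in any of the 606 gaps. The median length of the members was 879 bases, against 948 bases for all Pbr models. Models in 1 block, whose length equals their span on the scaffold and which therefore show no intron, made up 30.4% of the members and 28.8% of all Pbr models.

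A model was tested when it passed a filter on low counts, described with the processing below. Both members were tested in 292 divergent pairs, which is 48.2% of the 606, against 55.7% of the convergent pairs under 1 kb and 46.2% of all adjacent pairs. In another 185 divergent pairs, or 30.5%, 1 member was tested, against 33.0% of convergent and 36.3% of all adjacent pairs. Neither was tested in 129, or 21.3%, against 11.3% and 17.5%. In 66 of the 129, or 10.9% of the 606, both models had 0 counts in every library, against 3.34% of convergent and 5.72% of all adjacent pairs. In the 185 pairs with 1 tested member it was the minus strand model in 89 and the plus strand model in 96. The untested partner had a median of 3 reads over all 15 libraries, no partner had more than 98, and 65 had none, while the tested member had a median of 7.76 FPKM (the authors' fragments per kilobase of model, scaled to library total). These pairs hold 1 expressed gene beside a gene at or near 0. All results below on both members refer to the 292 tested pairs and say nothing of the 185 and 129 others.

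Levels were compared between genes only per length, in FPKM. The 2 members of a tested divergent pair differed by a median of 1.35 on the log2(FPKM + 1) scale, with quartiles of 0.59 and 2.44. The median difference was 1.74 in tested convergent pairs under 1 kb and 1.65 in all tested adjacent pairs. Levels within 2-fold of each other were found in 39.4% of the divergent pairs, 31.3% of the convergent pairs and 32.5% of all adjacent pairs. Pearson's r between the 2 members' levels was 0.250 across divergent pairs and 0.076 across convergent pairs, both as descriptions of points that share their libraries. Tandem pairs under 1 kb, whose models lie on the same strand, were closer still, with a median difference of 1.19 and 43.6% within 2-fold. In divergent pairs a difference of more than 16-fold still separated the members of 8.56% of the divergent pairs. Neither strand was favoured, since the median of the plus strand minus the minus strand level was -0.03.

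Changes over time were asked of each member first. The share of members called on day 9 was close to that of all genes, and on day 3, 6 and 12 it was smaller. More of the calls on day 9 were lower than higher, and so were most of the few calls on day 3. A call is a change from day 0 with an adjusted p under 0.05 in edgeR's quasi-likelihood test, fitted and adjusted over all 29134 tested models, of which 769 were members.

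On day 3, 54 of the 769 tested members were called, which is 7.02%, against 9.36% of all tested models. Of these members 8 were higher and 46 lower than on day 0. Members called higher were 1.04% of those tested, against 4.47% of all models, and members called lower were 5.98%, against 4.9%. More members were lower than higher on day 3 in each of the 15 fits that left out 1 library, although the count itself ran from 14 to 80 in them while the share of all models ran from 3.39% to 13.1%. The count was 14 without replicate 2 of day 0 or replicate 2 of day 3, 21 without replicate 1 of day 3, 26 without replicate 3 of day 0 and 29 without replicate 3 of day 3.

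On day 6, 34 members were called, which is 4.42%, against 9.56% of all tested models. The 34 were 12 higher, against 5.3% of all models, and 22 lower, against 4.26%. The count fell to 12 without replicate 2 of day 0 and rose to 61 without replicate 1 of day 6.

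On day 9, 396 members were called, which is 51.5%, against 49.7% of all tested models. Members were lower in 246 cases, 32.0% of those tested against 26.7% of all models, and higher in 150 cases, 19.5% against 23.0%. Among tested members of tandem pairs under 1 kb, 29.4% were lower and 21.2% higher. Whether the share of divergent members called lay above that of all models depended on the processing. The members' share was 41.9% against 42.3% of all models with the length trend removed, 40.8% against 41.6% with the replicate block added to that, and 50.0% against 50.7% in a fit of only day 9 and day 0. Day 9 was the one change of many members: 314 of the 769, or 40.8%, were called on day 9 and on no other day, against 31.5% of all tested models. Another 306 members, or 39.8%, were called on no later day, against 38.3% of all models.

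On day 12, 101 members were called, which is 13.1%, against 22.6% of all tested models. They divided into 46 higher, or 5.98% against 11.6% of all models, and 55 lower, or 7.15% against 11.0%. Without replicate 1, 2 or 3 of day 12 this split turned, with 29, 29 and 31 higher and 28, 26 and 29 lower. Members of convergent pairs under 1 kb reached 21.9% and members of divergent pairs at 1 kb or more reached 22.8%, both close to the share of all models. Tandem pairs under 1 kb had 19.1% of their tested members called. The count of 101 fell to 67 without replicate 2 of day 0, 57 without replicate 1 of day 12, 55 without replicate 2 of day 12 and 60 without replicate 3 of day 12. The members' share stayed below that of all models in each of the 15 fits with 1 library left out on day 3, on day 6 and on day 12, and above it in all 15 on day 9.

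**Figure D1:**
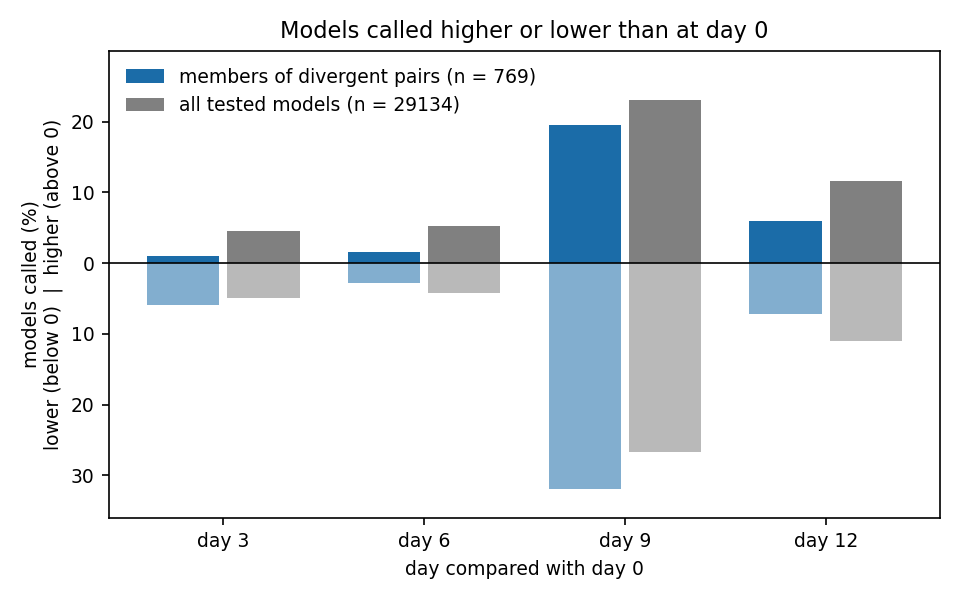
Bars give the percentage of tested models called higher (above 0) or lower (below 0) than on day 0 by edgeR, for the 769 tested members of divergent pairs (left bar of each day) and all 29134 tested models (right bar). On day 12 the members reached 5.98% higher and 7.15% lower, against 11.6% and 11.0% of all models, whereas on day 9 they reached 19.5% higher and 32.0% lower, against 23.0% and 26.7%.

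The low share on day 12 was seen in each group of models by level and by length. When all tested models were divided by mean level into 4 equal groups, from low to high, 13.4%, 11.6%, 12.4% and 15.5% of the members were called on day 12, against 19.0%, 19.9%, 23.4% and 28.0% of all models. In 4 equal groups by coding length, from short to long, the members' share was 10.5%, 13.7%, 14.9% and 14.5%, against 21.6%, 24.1%, 24.3% and 20.3%. The size of the change was also smaller, with a median absolute log2 fold change on day 12 of 0.21 in members and 0.31 in all models. The median standard error on day 12 was 0.18 in members and 0.22 in all models.

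The spread of the members was small within the libraries as well. The median absolute difference of a member from its day 0 mean was 0.23 to 0.24 on the log2 scale in the 3 libraries of day 12, against 0.32 to 0.33 for all models. In the 3 day 0 libraries themselves it was 0.16 to 0.18 for members and 0.21 to 0.22 for all models. Members lay below all models in 12 of the 12 later libraries and in 3 of the 3 day 0 libraries. Members of convergent pairs under 1 kb also lay below all models in every library, with 0.309 against 0.329 in replicate 1 of day 12. They lay above divergent members except in replicate 2 of day 9, with 0.531 beside 0.539. The smaller spread of the divergent members was thus present between replicates of day 0 as well as over time, and the difference from other models was not tested.

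Calls and co-change were also described by the distance between the 2 models. Among divergent pairs the share of members called on day 12 was 18.0% of 50 tested members under 250 bases, 29 of 193 at 250 to 499 bases and 12.0% of 526 at 500 to 999 bases. Beyond the limit of the rule it was 16.9% at 1000 to 1999 bases, 21.8% at 2000 to 4999 bases, 24.5% at 5000 to 9999 bases and 24.4% at 10000 bases or more. The share at 1000 to 1999 bases lay between the 12.0% just within the limit and the 21.8% of the next bin. Whether the limit of 1 kb marks a step was not tested. Among convergent pairs the share ran from 20.3% to 26.7% over the same distances.

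**Figure D2:**
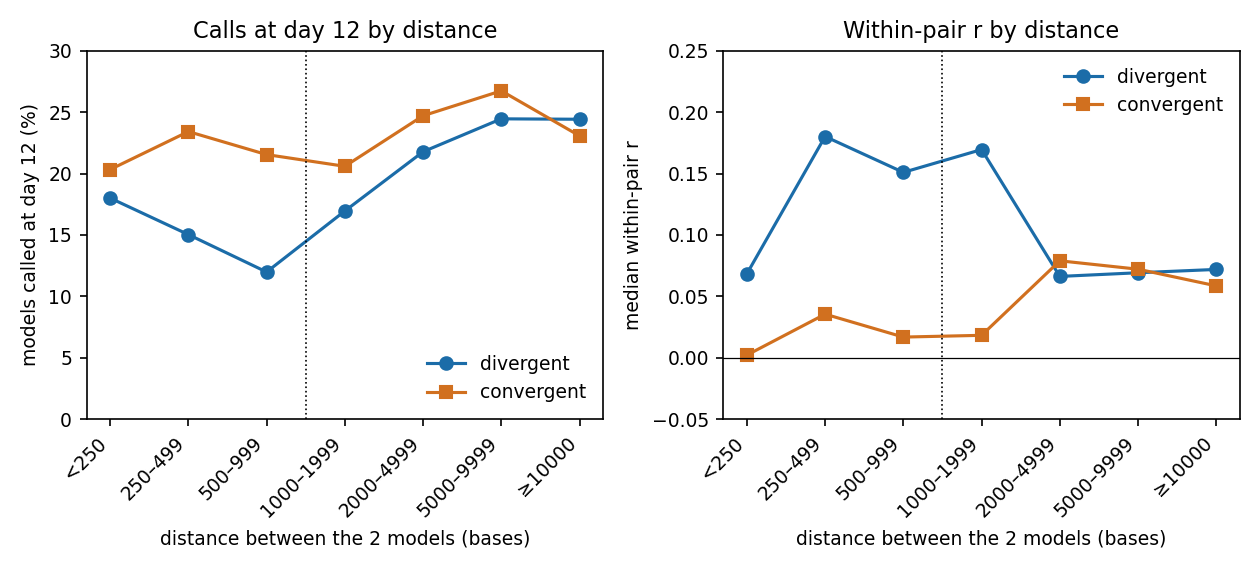
Percentage of tested models called on day 12 (left) and median within-pair r over 15 libraries (right) against the distance between the 2 models in bases, for divergent pairs (circles) and convergent pairs (squares); the dotted line marks 1000 bases. Divergent members were called least often at 500 to 999 bases, at 12.0%, and convergent members ran between 20.3% and 26.7%.

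Whether the 2 members of a pair changed together was asked next. Few pairs had both members called, except on day 9, when 45 pairs moved one way and 32 moved apart. With edgeR, pairs called in opposite directions occurred on day 9 and on no other day. Counts are of the 292 tested divergent pairs and the 1434 tested convergent pairs under 1 kb. The difference between the orientations was not tested, since pairs are not replicates of a condition.

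On day 9 both members were called in the same direction in 45 divergent pairs, which is 15.4% (exact 95% interval 11.5% to 20.1%, counting error only), against 14.1% of all 19031 tested adjacent pairs. In 34 of the 45 both were lower and in 11 both were higher. All adjacent pairs had 1485 both lower and 1195 both higher, and convergent pairs had 70 lower and 99 higher. The 777 tested tandem pairs under 1 kb had 79 both lower and 33 both higher, so that they too were more often lower. Members were called in opposite directions in 32 divergent pairs, or 11.0%, against 11.8% of all adjacent pairs. Convergent pairs had 169 in the same direction, or 11.8%, and 180 in opposite directions, or 12.6%. The same direction thus held for 58.4% of the divergent pairs with both members called, 48.4% of such convergent pairs and 54.4% of all such adjacent pairs. In 148 divergent pairs, or 50.7%, 1 member was called on day 9, against 48.6% of all adjacent pairs. That left 67 with neither, or 22.9%, against 25.5% of all adjacent pairs.

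On day 3 both members were called lower in 4 divergent pairs, none was called higher in both, and none in opposite directions, against 0.378% of all adjacent pairs. The 4 pairs are 1.37% of 292 (exact 95% interval 0.374% to 3.47%), against 0.946% of all adjacent pairs and 0.349% of convergent pairs, with 5 pairs. With an unadjusted p under 0.05 on day 3 there were 4 pairs with both members higher, 10 with both lower and 2 in opposite directions, and DESeq2 called 0 in opposite directions. On day 6 edgeR called both members in 0 pairs, against 1.02% of all adjacent pairs in the same direction and 0.42% in opposite ones. With an unadjusted p under 0.05 on day 6 there were 7 pairs in the same direction and 1 in opposite directions, and DESeq2 called 3 in the same direction and 0 in opposite ones. On day 12 both members were called higher in 4 pairs, or 1.37%, against a same-direction share of 4.4% of all adjacent pairs and 2.93% of convergent pairs. In 0 pairs both were called lower, against 10 at an unadjusted p under 0.05. No divergent pair was called in opposite directions on day 12 by edgeR, against 28 convergent pairs and 2.2% of all adjacent pairs, while 3 divergent pairs were at an unadjusted p under 0.05 and DESeq2 called 1.

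The direction of the changes on day 9 moved with model length. In 26 of the 32 divergent pairs called in opposite directions the longer member was the lower one, and so it was in 161 of the 180 convergent pairs. Members of pairs that rose together had a median length of 541.5 bases, and members of pairs that fell together 1537.5 bases. After the trend of each library with length was removed, 39 divergent pairs were called in the same direction and 16 in opposite directions, among them 28 of the 45 and 9 of the 32. Convergent pairs then had 117 in the same direction and 103 in opposite directions. Spearman's rho of length and day 9 change was -0.33 across the 769 tested members and -0.38 across all 29134 tested models, which share their libraries. The part of length in these changes was not tested further.

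Co-change was also measured without calls, as Pearson's r of the 2 members' log2 CPM over the 15 libraries. Its median was 0.16 in divergent pairs, with quartiles of -0.21 and 0.49, and 0.02 in convergent pairs under 1 kb. It was 0.10 in 777 tandem pairs under 1 kb and 0.08 in divergent pairs at 1 kb or more and in all adjacent pairs. The typical correlation was thus weak, and r was above 0 in 64.4% of divergent pairs, against 51.3% of convergent pairs. With both members at a mean log2 CPM of at least 1, the median was 0.13 in 209 divergent pairs and 0.02 in 1007 convergent pairs. There r was above 0 in 58.9% of divergent and 50.7% of convergent pairs, so that the 2 orientations lay closer together. The order of divergent and tandem pairs turned without the day 9 libraries, where the median was 0.171 in divergent and 0.202 in tandem pairs, and under 500 bases, where it was 0.170 and 0.177. The members of a pair share library and depth, so these values are descriptions and carry no p.

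The value divided unevenly between the days and the replicates. Over the 5 day means the median r was 0.23 in divergent pairs and 0.05 in convergent pairs. Over the residuals from the day means, which hold the differences between replicates, it was 0.09 in divergent and 0.03 in convergent pairs. Each fit that left out 1 library gave a median r of 0.144 to 0.176 in divergent pairs and 0.012 to 0.030 in convergent pairs, so that no single library set the order. By distance the median was 0.07 in the 20 tested pairs under 250 bases, 0.18 at 250 to 499 bases, 0.15 at 500 to 999 bases and 0.17 at 1000 to 1999 bases, and 0.07 in each wider bin. The closest pairs were thus not the most alike, and those just beyond 1 kb were like those just within it.

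**Figure D3:**
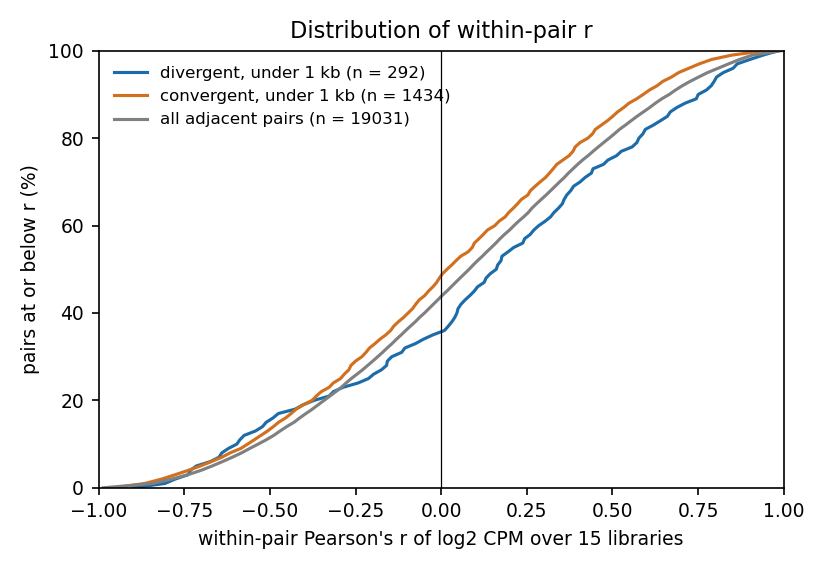
Cumulative percentage of tested pairs against within-pair Pearson's r of log2 CPM over 15 libraries, for divergent pairs under 1 kb, convergent pairs under 1 kb and all adjacent pairs. The medians are 0.16 in divergent and 0.02 in convergent pairs. The 2 lines cross below the lower quartile: the percentile 10 is -0.597 in divergent and -0.565 in convergent pairs, while 6.51% of divergent pairs against 1.81% of convergent pairs lie above 0.8.

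In each later library the change of 1 member from its day 0 mean was set against that of the other across all tested pairs. Pearson's r across the 292 divergent pairs was higher than that across convergent pairs in 11 of the 12 libraries. The exception was replicate 3 of day 3, with 0.0162 in divergent and 0.0173 in convergent pairs, while replicates 1 and 2 of day 3 had 0.224 and 0.202 in divergent pairs. Divergent pairs had 0.102 to 0.179 on day 6, 0.122 to 0.163 on day 9 and 0.199 to 0.220 on day 12, and no convergent value in any library was above 0.079. Tandem pairs were higher than divergent pairs on day 3, day 6 and day 12, and lower in the 3 libraries of day 9. All 12 values rest on the same 3 day 0 libraries.

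**Figure D4:**
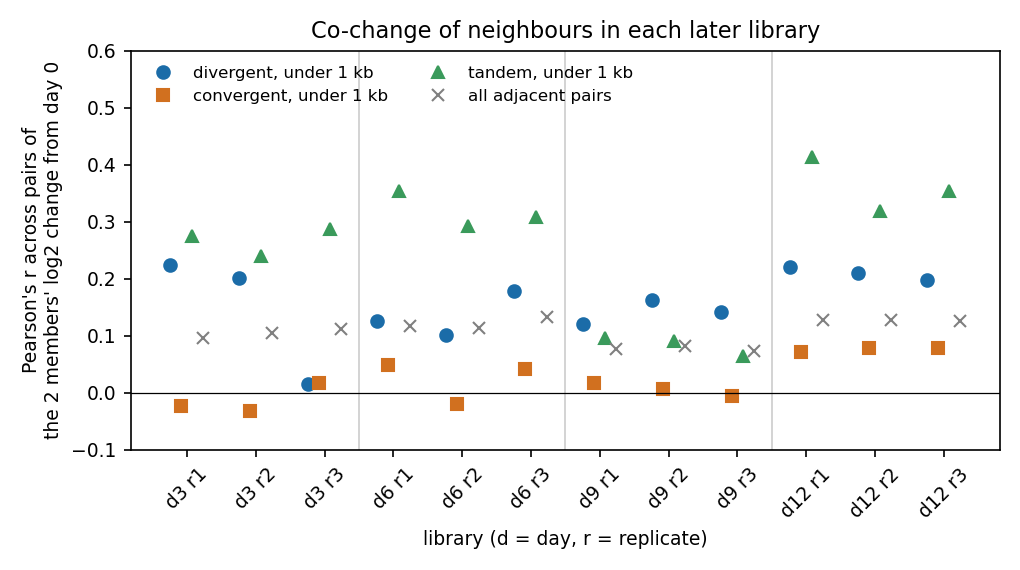
Each point is Pearson's r, across the tested pairs of 1 kind, between the log2 changes of the 2 members from their day 0 means in 1 later library (d = day, r = replicate). Divergent pairs (circles) lay above convergent pairs (squares) in 11 of the 12 libraries, and below tandem pairs (triangles) in 9.

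An r above 0.8 was found in 19 divergent pairs, or 6.51%, against 1.81% of convergent pairs and 4.29% of all adjacent pairs. In tandem pairs under 1 kb the share was 6.18%, close to that of divergent pairs. In 11 of the 19 both members were lower on day 9, in 5 both were higher on day 9, and in 3 only 1 was called that day. The residuals from the day means of these 19 pairs had a median r of 0.257 and ran from -0.215 to 0.861, so that in some pairs the likeness lay in the days alone. An r below -0.8 was found in 6 divergent pairs, or 2.05%, against 2.65% of convergent pairs and 1.72% of all adjacent pairs. Of the 6, 4 had opposite calls on day 9.

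A fit with limma, made on the pair itself, separated the change that both members shared from the change that set them apart. It took the mean of the 2 members' log2 CPM and the difference of plus strand minus minus strand member, with p-values adjusted over all 19031 tested adjacent pairs. Over the whole course the shared value changed in 183 of the 292 divergent pairs, or 62.7%, against 66.2% of all adjacent pairs. The difference between the members changed in 178, or 61.0%, against 65.6%. Both passed in 130 of the 292 divergent pairs, against 9350 of the 19031 adjacent pairs. Most pairs with a shared change thus also had a changed ratio between the members, among divergent as among all adjacent pairs. Only the shared value passed in 53 divergent pairs, against 3255 of all adjacent pairs, and only the difference in 48, against 3135.

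On day 9 the shared value changed in 158 divergent pairs, 54.1%, against 47.3% of all adjacent pairs and 42.5% of convergent pairs. It was lower in 109 and higher in 49, against 5070 lower and 3930 higher among all adjacent pairs. Convergent pairs had 278 lower and 332 higher. Tandem pairs under 1 kb had 265 lower and 129 higher, so that they too were more often lower. The difference changed in 145 pairs on day 9, or 49.7%, against 48.9%. On day 12 the shared value changed in 44 pairs, 15.1%, against 27.8% of all adjacent pairs, and the difference in 24 pairs, 8.22%, against 25.7%. Convergent pairs had a changed difference in 24.5% of cases on day 12, and tandem pairs under 1 kb in 14.8%. A changed ratio between the 2 members was thus called in a smaller share of divergent pairs than of other neighbours on day 12, as was a change of either member alone. The shared value changed in 22 pairs on day 3, 7.53% against 10.4%, and in 13 pairs on day 6, 4.45% against 12.1%. The difference changed in 15 pairs on day 3, 5.14% against 9.86%, and in 10 pairs on day 6, 3.42% against 11.4%. Tandem pairs under 1 kb had a changed difference in 4.76% on day 3 and 4.89% on day 6. Their shared value changed in 7.34% on day 3 and 9.01% on day 6. The counts of divergent pairs moved when 1 library was left out. The shared value then changed in 8 pairs on day 3 without replicate 2 of day 0 or replicate 2 of day 3, 11 without replicate 1 of day 3 and 13 without replicate 3 of day 0. On day 6 it changed in 4 pairs without replicate 2 of day 0 and 25 without replicate 1 of day 6. On day 12 it changed in 28 pairs without replicate 2 of day 0, and in 27, 27 and 29 without replicate 1, 2 and 3 of day 12. The difference on day 3 changed in 3 to 9 pairs without any 1 library of day 0, 3 or 12, in 23 without replicate 1 of day 6 and in 9 with a replicate block. On day 6 it changed in 3 pairs without replicate 2 of day 0, 6 without replicate 2 of day 12 and 20 without replicate 1 of day 6, and on day 12 in 15 without replicate 1 of day 12.

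Single pairs are given as TMM-scaled CPM in every library. They were taken by a set rule among pairs with both members at a mean log2 CPM of at least 1, both called, and all 3 libraries of each member beyond the range of day 0. On day 9 the rule could choose from 10 pairs that rose, 18 that fell and 28 that moved apart, on day 3 from 4 pairs that fell and on day 12 from 1 pair that rose. No pair qualified on day 6.

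Among these, the pair that fell farthest on day 9 lay on scaffold181.0 at 535998 to 538791, with 400 bases between Pbr011613.1 on the minus strand and Pbr011614.1 on the plus strand. The minus strand member had 1.57, 1.35 and 1.89 CPM on day 9, against 5.06, 5.59 and 5.68 CPM on day 0. The plus strand member had 0.671, 0.538 and 0.457 CPM on day 9, against 4.87, 6.05 and 5.88 CPM on day 0. All day 9 libraries lay below all day 0 libraries in both members. The log2 fold change was -1.75 ± 0.196 (SE) with an edgeR adjusted p of 1.14e-05 in the minus strand member and -3.32 ± 0.206 with 1.29e-07 in the plus strand member. On day 12 the means were back at 5.05 ± 0.908 and 4.49 ± 0.507 CPM (SD, n = 3), and neither passed against day 0 in edgeR, with adjusted p of 0.728 and 0.203. Per length the members averaged 2.71 and 1.09 FPKM on day 9, against 9.99 and 11.9 FPKM on day 0. Their r over 15 libraries was 0.969, while their residuals from the day means had r of -0.086. The larger fall of the plus strand member was itself past the threshold, with a difference on day 9 of -1.37 ± 0.293 and a limma adjusted p of 0.00151.

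Among all tested pairs with both members at a mean log2 CPM of at least 1, the highest r, 0.984, was that of a pair on scaffold71.0 at 552347 to 556220, with 291 bases between the models. Its minus strand member had 0.522, 0.359 and 0.522 CPM on day 9, against 3.99, 4.40 and 3.69 CPM on day 0. Its plus strand member had 13.9, 10.1 and 12.5 CPM on day 9, against 29.5, 32.0 and 26.6 CPM on day 0. Both fell on day 9, and their day 12 means of 3.93 and 31.8 CPM stood near the 4.03 and 29.4 CPM of day 0. In this pair the replicates moved together as well, with an r of 0.849 between residuals from the day means. The member of 294 bases fell by 3.07 on the log2 scale and the member of 1227 bases fell by 1.27. Here the shorter member fell more, unlike in most pairs with opposite calls on day 9.

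Another pair that fell on day 9 lay on scaffold9.0 at 1360342 to 1368971, with 311 bases between the models. On the minus strand the level was 2.76, 2.87 and 3.39 CPM on day 9, against 8.54, 9.40 and 9.03 CPM on day 0. On the plus strand it was 3.43, 3.14 and 3.92 CPM on day 9, against 8.67, 9.20 and 8.68 CPM on day 0. The difference between the members' changes did not pass in limma on day 3, 6, 9 or 12, with adjusted p of 0.196, 0.242, 0.518 and 0.213. Over the course it passed narrowly, with a limma adjusted p of 0.0497. The plus strand member averaged 8.85, 5.62, 5.25, 3.50 and 4.42 CPM on day 0, 3, 6, 9 and 12, while the minus strand member averaged 8.99, 8.60, 7.81, 3.01 and 6.35 CPM. In edgeR the plus strand member was already lower on day 3, with an adjusted p of 0.0451, and the minus strand member was not, with 0.862. Leaving out any 1 library of day 0, 3 or 9, or replicate 1 of day 12, ended this call of day 3, with adjusted p up to 0.150.

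Among the qualifying pairs, the one that rose most on day 9 lay on scaffold30.0 at 727210 to 731470, with 924 bases between Pbr020257.1 on the minus strand and Pbr020258.1 on the plus strand. The minus strand member had 63.2, 64.4 and 57.3 CPM on day 9, against 29.5, 24.7 and 23.9 CPM on day 0. The plus strand member had 10.5, 17.8 and 14.6 CPM on day 9, against 5.44, 4.27 and 5.54 CPM on day 0. The log2 fold changes were 1.24 ± 0.126 and 1.49 ± 0.262 (SE), with edgeR adjusted p of 5.23e-06 and 0.000427. In edgeR the minus strand member was higher on day 3, 6 and 9, with means of 26.0, 54.0, 48.9, 61.7 and 19.7 CPM on day 0, 3, 6, 9 and 12. Its plus strand neighbour had means of 5.08, 6.36, 9.14, 14.3 and 6.55 CPM on these days and passed in edgeR on day 9 alone. Both members thus rose on day 9, and on day 12 the minus strand member was lower than on day 0 with an edgeR adjusted p of 0.0369. Leaving out replicate 1 or 2 of day 0 or any library of day 12 ended this call, with adjusted p up to 0.140.

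The next pair that rose on day 9 lay on scaffold179.0 at 233588 to 236630, with 947 bases between 2 short models of 321 and 174 bases. On the minus strand the level was 28.1, 26.4 and 23.9 CPM on day 9, against 14.9, 15.7 and 14.6 CPM on day 0. On the plus strand it was 24.5, 30.0 and 29.8 CPM on day 9, against 16.7, 16.2 and 14.6 CPM on day 0. The difference between the members passed on no day, with a limma adjusted p of 0.608 over the course. The rise of the minus strand member was 0.79 on the log2 scale with an edgeR adjusted p of 0.00183, and 0.33 with 0.116 once the length trend was removed, which ends the call.

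Other pairs moved apart on day 9. On scaffold404.0 at 187297 to 194325, with 937 bases between the models, the minus strand member had 9.77, 7.44 and 7.31 CPM on day 9, against 29.2, 25.8 and 30.0 CPM on day 0. The plus strand member had 21.5, 28.1 and 23.0 CPM on day 9, against 9.49, 9.66 and 11.9 CPM on day 0. Per length the members averaged 4.04 and 19.0 FPKM on day 9, against 15.2 and 8.85 FPKM on day 0, so that their order was turned round. The call rested on log2 fold changes of -1.79 ± 0.176 and 1.22 ± 0.213 (SE) and edgeR adjusted p of 4.01e-06 and 0.000402. On day 12 the minus strand member was again the higher one, at 10.5 ± 1.47 FPKM beside 6.46 ± 0.596 FPKM for the plus strand member (SD, n = 3). The shared value did not pass on day 9, with a limma adjusted p of 0.147, whereas the difference did, with 2.99e-07.

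The lowest r among the pairs at that mean level, -0.900, was that of a pair on scaffold289.0 at 438816 to 449089, with 994 bases between a model of 4056 bases and one of 309 bases. The long minus strand member had 2.16, 2.42 and 2.61 CPM on day 9, against 9.05, 9.60 and 8.27 CPM on day 0. The short plus strand member had 15.7, 15.7 and 17.3 CPM on day 9, against 7.15, 8.09 and 6.22 CPM on day 0. On day 3, day 6 and day 12 neither member passed against day 0 in edgeR, the lowest adjusted p being 0.299. The pair of the second lowest r, -0.827, on scaffold105.0 at 389656 to 400577 had the same build, with 4164 and 369 bases. Its long member averaged 4.94 ± 0.251 CPM on day 9 and 14.4 ± 1.65 CPM on day 0, and its short member 10.9 ± 1.61 CPM on day 9 and 7.31 ± 0.499 CPM on day 0 (SD, n = 3 each). The rise of that short member was 0.58 on the log2 scale and 0.13 with the length trend removed, where its edgeR adjusted p was 0.519.

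**Figure D5:**
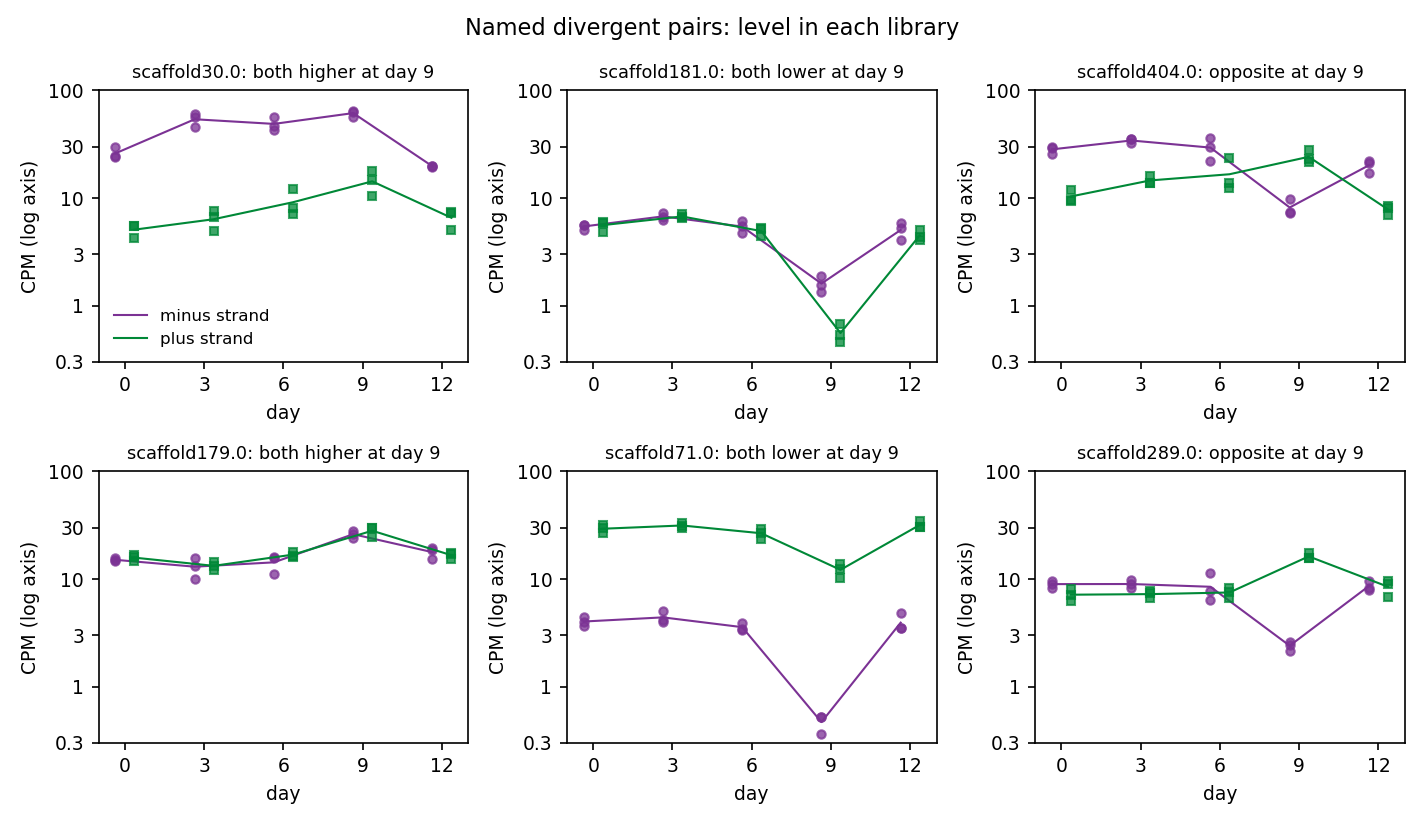
CPM on a log axis in each of the 15 libraries for 6 divergent pairs, with the minus strand member as circles, the plus strand member as squares and lines through the day means. In the left panels both members were higher on day 9, in the middle panels both were lower, and in the right panels they moved apart; the scaffold181.0 pair averaged 1.60 and 0.555 CPM on day 9 against 5.44 and 5.60 CPM on day 0.

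The falls on day 3 were small. On scaffold2.0 at 1304375 to 1311075, with 899 bases between the models, the minus strand member had 23.1, 20.9 and 21.5 CPM on day 3, against 27.2, 32.1 and 29.2 CPM on day 0. Its plus strand neighbour had 286, 262 and 299 CPM on day 3, against 385, 440 and 385 CPM on day 0. On day 9 both stood near their day 0 level, with means of 29.3 and 412 CPM, against 29.5 and 403 CPM on day 0. The shared fall on day 3 was 0.47 ± 0.081 on the log2 scale with a limma adjusted p of 0.0041. In edgeR the plus strand member was called in all 15 fits that left out 1 library, and the call of the minus strand member was lost without replicate 2 or 3 of day 0 or any library of day 3, with adjusted p up to 0.116.

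A pair on scaffold37.0 at 381666 to 386423, with 694 bases between the models, fell in the same way. Its minus strand member had 21.9, 16.8 and 18.2 CPM on day 3, against 30.2, 35.4 and 35.6 CPM on day 0. Its plus strand member had 215, 202 and 244 CPM on day 3, against 274, 307 and 300 CPM on day 0. The day 3 libraries lay below those of day 0 in both members, and the shared fall of 0.62 ± 0.12 had a limma adjusted p of 0.00641. Leaving out 1 library ended the edgeR call of the minus strand member in 9 of 15 fits, those without replicate 2 or 3 of day 0, any library of day 3 or 12 or replicate 3 of day 9, with adjusted p up to 0.134. The plus strand member lost its call in 4 fits, without replicate 2 or 3 of day 0 or replicate 1 or 2 of day 3, with adjusted p up to 0.0756.

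The pair that rose on day 12 lay on scaffold17.0 at 182809 to 192854, with 569 bases between the models. The minus strand member had 25.8, 25.1 and 27.9 CPM on day 12, against 19.0, 15.8 and 19.3 CPM on day 0. The plus strand member had 66.6, 64.5 and 69.9 CPM on day 12, against 50.2, 42.5 and 43.4 CPM on day 0. The members rose by nearly the same amount, 0.54 ± 0.131 and 0.56 ± 0.086 (SE) on the log2 scale, with edgeR adjusted p of 0.00909 and 0.000433. Their difference on day 12 was 0.02 ± 0.16 with a limma adjusted p of 0.944. Without replicate 2 of day 0 the minus strand member's adjusted p was 0.0503. On day 9 the minus strand member was lower than on day 0 in edgeR, with an adjusted p of 0.00673, or 0.482 with the length trend removed, and the plus strand member had 0.406.

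In the 2 closest tested pairs with both members at that level, 1 member was called on day 9 and the other was not. On scaffold26.0 at 10492 to 15450, with 133 bases between the models, the plus strand member had 14.5, 16.2 and 14.6 CPM on day 9, against 10.7, 10.1 and 11.0 CPM on day 0. Its minus strand neighbour had 14.2, 19.3 and 19.2 CPM on day 9, against 19.9, 20.5 and 19.9 CPM on day 0, and was not called. On scaffold39.0 at 1193158 to 1200762, with 183 bases between the models, the plus strand member again rose on day 9, to 21.7 ± 0.57 CPM, against 16.2 ± 1.02 CPM on day 0 (SD, n = 3 each), while the minus strand member averaged 15.5 ± 1.79 CPM on day 9 and 16.8 ± 1.3 CPM on day 0. The difference on day 9 passed in both pairs, with limma adjusted p of 0.00459 and 0.0154. Both rises lost their edgeR call once the length trend was removed, with adjusted p of 0.364 and 0.124.

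The pair with the most reads also had 1 member called on day 9 beside 1 that did not pass. On scaffold21.0 at 1363224 to 1388547, with 778 bases between the models, the plus strand member of 7896 bases had 10.1, 9.78 and 9.72 CPM on day 9, against 52.9, 38.6 and 49.4 CPM on day 0. Its minus strand neighbour of 2523 bases had 434, 420 and 356 CPM on day 9, against 457, 453 and 430 CPM on day 0. The edgeR adjusted p on day 9 was 1.51e-07 for the plus strand and 0.186 for the minus strand member. On scaffold37.0 at 425735 to 429793, with 996 bases between the models, the members stood far apart per length, with means over all libraries of 549 FPKM for the plus strand and 11.8 FPKM for the minus strand member. On day 3 the plus strand member fell to 347 ± 22.6 CPM, against 459 ± 21.4 CPM on day 0 (SD, n = 3 each), with an edgeR adjusted p of 0.00924, or 0.0537 without replicate 2 of day 3. The minus strand member averaged 6.60 ± 0.722 CPM on day 3 and 6.13 ± 0.791 CPM on day 0, with an adjusted p of 0.694 in edgeR.

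At the limit of the rule, the tested pair at 999 bases, on scaffold200.0 at 104001 to 109426, had an r of 0.333, and the tested pair at 1001 bases, on scaffold301.0 at 317675 to 325090, had an r of 0.259. In the pair at 999 bases the plus strand member averaged 7.97 CPM on day 3 and 17.1 CPM on day 0, and the minus strand member 20.3 and 28.8 CPM. Just outside, the plus strand member averaged 13.2 CPM on day 3 and 22.8 CPM on day 0, and the minus strand member 24.4 and 23.0 CPM.

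Near-identical copies could have exchanged reads during the authors' counting. Among the 769 tested members, 47 had another model of several blocks with the same length and span, and so did 1 of the 34 named models. The use of strand in counting is not given in the sources used here, so that reads from untranslated leaders that overlap between 2 neighbours cannot be told apart.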

How the data were processed

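Per the file headers, the authors deposited 1 table with the position, strand and length of each model and, per library, a whole-number read count and an FPKM value, the authors' normalization of these counts to model length and library total. HISAT is named per the submitters' processing notes; the sources used here give no version of it or of the genome, and neither the counter nor its use of strand. Adjacent Pbr models were paired by scaffold and start. Counts were tested with edgeR 4.0.16 in R 4.3.3 (filterByExpr by day, TMM, quasi-likelihood test over all 15 libraries, Benjamini-Hochberg over 29134 models, FDR 0.05). Pair values were log2 CPM with a prior count of 2, fitted with limma 3.58.1. DESeq2 1.42.0 was an alternative. Levels are the authors' deposited FPKM with a pseudocount of 1 before log2. Length trends were removed by a loess offset per library.

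The members, lists and alternatives were chosen with earlier results of these data known. Named pairs are, for each later day, up to 2 that rose, fell or moved apart by the largest smaller change of the 2 members, the 2 of highest and lowest r, shortest distance and most reads, and those at the limit. Some pairs met several of these reasons. In simulated counts of the day 3 against day 0 comparison over 28729 models, edgeR called 165 of 200 models changed 4-fold and 10 unchanged ones. Replicate numbers are not stated to pair the libraries, and the main fit holds no replicate term. Same-numbered libraries of 2 days deviated from their day means with r of -0.082 to 0.166, median -0.001. Different-numbered libraries had r of -0.193 to 0.155, median 0.0004. Exact 95% intervals cover counting error only.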

Additional observations from a re-analysis of the deposited data

How the results depend on the processing

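The members' share called below that of all models on day 3, day 6 and day 12 held in 7 of 7 other alternatives on each of these days. On day 9 it lay above that of all models in the 15 fits with 1 library left out and below it in 3 of 7 other alternatives. DESeq2 called 86 members on day 3, and a fit of only the 2 days compared called 0 on day 6, where all models had 0.09% called. Pairs called in the same direction numbered 1 on day 3 in the fit of 2 days and 0 with a change of at least 2-fold; 1 on day 6 with DESeq2's size factors, 3 with DESeq2 and 2 with the length trend removed; 12 on day 9 at 2-fold; and 7 on day 12 with DESeq2 and also with the fit of 2 days. Pairs under 500 bases gave 1, 20 and 2 on day 3, 9 and 12. Pairs in opposite directions on day 9 numbered 16 with the length trend removed, 14 with the replicate block added to that, 14 under 500 bases and 2 at 2-fold, and on day 12 1 with DESeq2 and 1 with the fit of 2 days. A pseudocount of 0.1 gave a median level difference of 1.56.

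Leaving out 1 library gave 14 to 80, 12 to 61, 347 to 418 and 55 to 119 members called on day 3, 6, 9 and 12. Pairs in the same direction ran over 0 to 5, 0 to 2, 39 to 52 and 2 to 7, and pairs in opposite directions over 0 to 0, 0 to 1, 18 to 33 and 0 to 1. A shared change over the course was called in 154 to 204 pairs and a changed difference in 146 to 193. On day 3, 6, 9 and 12 the shared change ran over 8 to 32, 4 to 25, 127 to 173 and 27 to 52 pairs, and the changed difference over 3 to 23, 3 to 20, 126 to 152 and 15 to 32. The replicate block alone gave 42 members on day 3, 26 on day 6 and 93 on day 12. The samples share only a number, and 2 of 30 same-numbered correlations were above 0.1, as were 2 of 60 different-numbered ones. DESeq2's size factors moved the median change of all models by at most 0.015, and removal of the length trend by at most 0.024. Single models moved more with the length trend removed, such as the minus strand member on scaffold179.0, from 0.79 to 0.33 on day 9. No named model changed sign. Members called on day 12 were more often lower than higher in 12 of 15 fits with 1 library left out. No divergent pair had members of equal length, so leaving such pairs out changed no divergent value. Low counts limit the 185 and 129 pairs without 2 tested members.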
